A study of Python bivittatus with 8 samples.

Results

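Genes whose transcript level stood above that of the fasted heart at every time sampled after a meal are described here, in the left ventricle of the Burmese python (Python bivittatus). They numbered 179 of the 21368 genes in the deposited count table, or 0.838%. The genes were chosen by their measured values. The level used was log2(CPM + 1), where CPM is a gene's count scaled to a common library total (counts per 1000000), averaged over the 2 libraries of a group. A gene was taken when its mean exceeded the fasted mean by at least 1.5-fold (log2 of 1.5, rounded to 3 decimals) at each of the 3 fed times. Its highest fed mean also had to reach 3, which is 7 CPM, and each of its 6 fed libraries had to lie above both fasted libraries.

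The ventricle of this snake is known for growing quickly after a large meal and for shrinking back as digestion ends. This growth is largely an enlargement of existing heart muscle cells, at a time when digestion raises the animal's oxygen use and the output of its heart, and it is reversed without scarring.

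All snakes were wild type and had fasted for 28 days. The fasted group was sampled at that point, and the groups called 1DPF, 4DPF and 6DPF were sampled 1, 4 or 6 days past a rodent meal that weighed 25% as much as the snake. The study takes 1DPF as a time of active growth, with early regression at 4DPF and later regression at 6DPF. Each group had 2 poly-A RNA libraries, with total counts between 33203808 and 42250755. Whether both libraries of a group are from different animals is not stated in the labels, whose protocol gives 6 snakes for sequencing and proteomics, fewer than the 8 libraries. The p-values below therefore measure the spread between libraries, which may be technical in part. In whole tissue, a change in the share of a cell type and a change in RNA per cell cannot be told apart.

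The table knows genes by number alone and no name was paired with any number here. What these genes encode is therefore not given, their sequences are not shown, and the pathway and cell type lists, cardiac muscle markers included, were not analysed here. Genes are described by their level, course, length and spread, and 4 are followed by number.

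In 11341 genes the highest fed mean reached the required level, and the 179 were 1.58% of these. The 3 differences and the level were met by 206 genes, of which 27 were left out because a fed library did not exceed both fasted ones. The mirrored rule, for genes below fasted at all 3 fed times, found 107 genes. Just inside the 1.5-fold limit, the 2 nearest genes had smallest log2 differences of 0.58504 and 0.58751, and just outside it the nearest had 0.58483 and 0.58372. The level of the gene nearest to the limit of 3 was 3.03 inside and 2.98 outside. Since the rule used every fed group against fasted, all differences from fasted are given as description, without a test.

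Together the 179 genes held 0.606% and 0.574% of the counts in fasted replicates 1 and 2. At 1DPF their share was 1.72% and 1.59%, at 4DPF 1.39% and 1.58%, and at 6DPF 1.17% and 1.08%. The rule itself makes this share higher in all fed libraries than in either fasted one. Among the fed libraries it was lowest at 6DPF. The median difference from fasted was 1.16 at 1DPF (2.24-fold on the log2(CPM + 1) scale), 1.14 at 4DPF (2.21-fold) and 0.84 at 6DPF (1.79-fold). Over all 11341 genes at the level, the medians were 0.04, -0.03 and 0.03. A difference of at least 1, a doubling, was seen in 113 of the 179 genes at 1DPF, in 113 at 4DPF and in 51 at 6DPF, and at all 3 times in 31. Differences of at least 2 were found in 24, 16 and 8 genes, and in none at all 3 times.

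**Figure D1:**
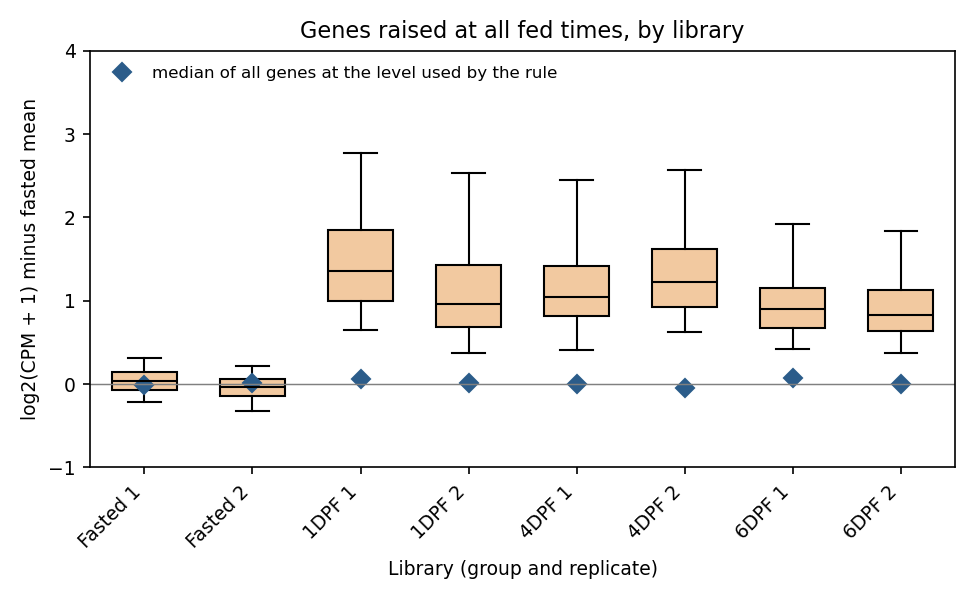
Level of the 179 genes in each library, as log2(CPM + 1) minus the mean of the fasted libraries (y axis), by group and replicate (x axis). Boxes span the quartiles with the median as a line, whiskers reach the 5th and 95th percentiles, and diamonds give the median of all 11341 genes at the level the rule required. The medians of the fed libraries lie between 0.83 at 6DPF replicate 2 and 1.36 at 1DPF replicate 1, while the diamonds stay within 0.08 of 0.

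Library by library, the median excess over the fasted mean was 1.36 and 0.96 in 1DPF replicates 1 and 2, 1.05 and 1.23 in those of 4DPF, and 0.90 and 0.83 in those of 6DPF. The 1DPF libraries differed by more than the group medians of 1DPF and 4DPF did. How far the fed libraries cleared the fasted ones also varied. Between the highest fasted and the lowest fed library the gap had a median of 0.43 and ran from 0.01 to 1.20. It was at least 1.5-fold in 55 genes and at least 1 on the log2 scale in 4, and it was under 0.1 in 10.

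The order of the fed groups was not set by the rule, although the rule limits how far a gene can return towards fasted. It also keeps out genes that rose only after 1DPF. By group mean, 90 genes (50.3%) were highest at 1DPF, 64 (35.8%) at 4DPF and 25 (14.0%) at 6DPF. Of all genes at the level, 44.9%, 15.6% and 39.5% were highest among the fed groups at these times. The commonest course was a maximum at 1DPF with the lowest fed level at 6DPF, in 81 genes (45.3%, against 26.8% of all genes at the level). Their median difference from fasted was 1.55, 1.12 and 0.73 at the successive fed times. Their median level went from 11.5 CPM in fasted ventricle to 33.8, 24.4 and 19.3 CPM. The 64 genes that were highest at 4DPF had median differences of 0.92, 1.29 and 0.86, with medians of 12.6 CPM fasted and 23.1, 37.6 and 24.6 CPM fed. Of these, 33 had their lowest fed level at 6DPF and 31 at 1DPF. Among the 25 genes highest at 6DPF, 17 were lowest at 1DPF, and the 25 had median differences of 0.88, 1.07 and 1.47. These orders come from means over 2 libraries and carry no test.

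**Figure D2:**
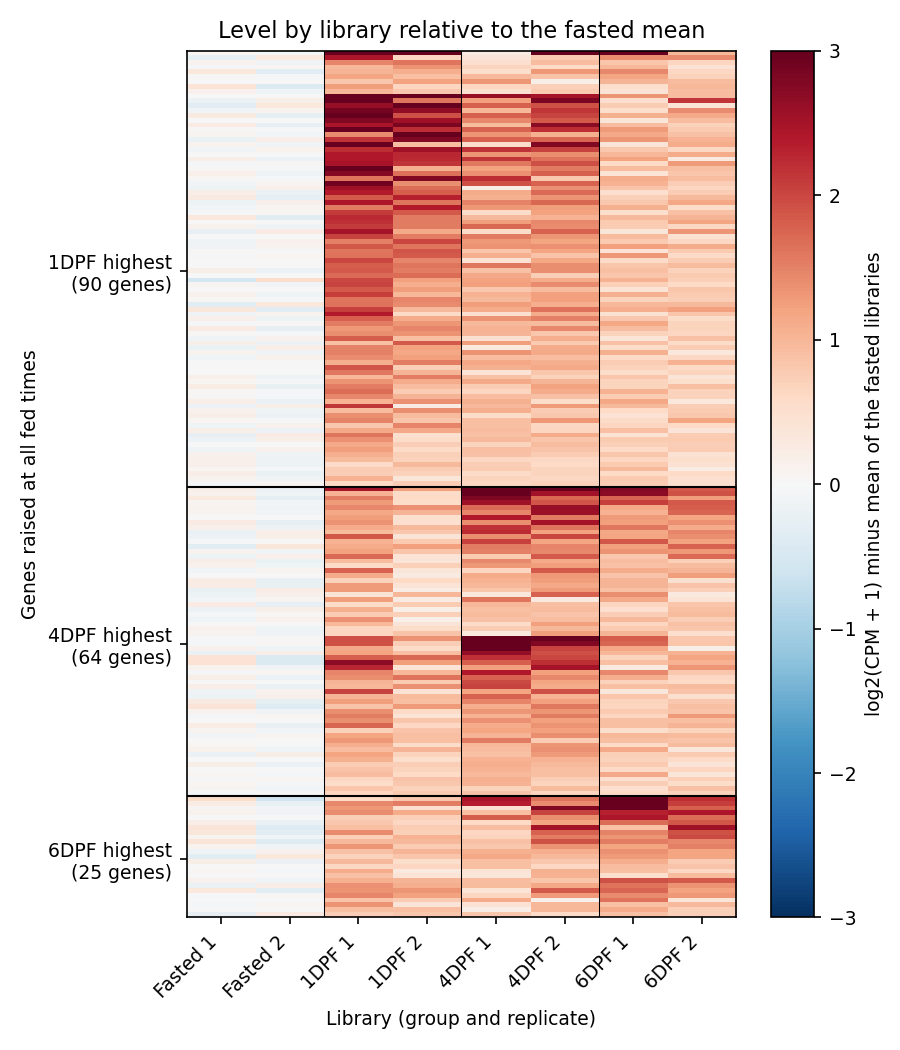
Heat map of the 179 genes (rows) in the 8 libraries (columns), coloured by log2(CPM + 1) minus the mean of the fasted libraries, with colours saturated at 3. Rows are grouped by the fed group with the highest mean (1DPF for 90 rows, 4DPF for 64, 6DPF for 25). Within the 1DPF block the libraries of 1DPF differ in many rows.

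The 3 comparisons between fed groups do not set any group against fasted. They were tested over all 16986 genes that passed a filter on low counts, with edgeR's quasi-likelihood test. The fasted libraries were part of the same fit, so they entered its estimate of the spread and thus the p-values. A gene was called when its Benjamini-Hochberg adjusted p over all tested genes was under 0.05. All 179 genes passed the filter, as the required level lies well above it. The rule still bears on these tests. A gene that fell back to its fasted level by 6DPF could not be a member. Only the highest fed group had to reach the required level, so a gene could enter through the group it fell from or rose to. Every fed group also had to lie above fasted, so the values compared here took part in the choice. How far this moved the shares called was not tested.

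Between 1DPF and 6DPF, from growth to later regression, 41 of the 179 genes fell (22.9%) and 6 rose (3.35%). Among all tested genes 10.4% were called lower and 11.3% higher at 6DPF, and among the 11341 genes at the level 14.0% and 13.3%. Of the 41 genes that fell, 26 changed at least 2-fold, and the median log2 change was -1.21. The median CPM of the 41 was 12.3 when fasted and 36.0, 25.9 and 22.3 at the successive fed times. All 41 were highest at 1DPF. Among them, the genes of 4530 and 1986 bases reached the required level only at 1DPF, and the rule favours such falls. How many of the 41 did so was not counted, and all of them are in the share given. For the 6 that rose the median log2 change was 1.46. Their fasted levels ran from 0.552 to 36.1 CPM with a median of 2.08 CPM, and their medians in the fed groups were 5.0, 10.7 and 10.9 CPM in order of time. Of the 6, the genes of 4752 and 1316 bases reached the required level only at 4DPF and only at 6DPF, respectively. Their mean log2(CPM + 1) at the successive fed times was 1.43, 3.76 and 2.93, and 1.75, 2.63 and 3.07. The rule favours such rises. Over all 179 genes the median log2 change was -0.27, against -0.03 for the genes at the level. The number of calls fell, among members and among all tested genes, when any library of 1DPF or 6DPF was left out. Such a fit has 1 library in that group. The fall among the members was largest without a 6DPF library. Without 6DPF replicate 1 the members' share called either way was below that of all tested genes. Their share called lower stayed above that of all tested genes in each of these fits, and members called higher became fewer.

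Gene 103053177, 1867 bases long, was the single member called lower in all 3 comparisons of fed groups. It was singled out for this after its values were seen. Its level was 42.5 and 41.3 CPM in the fasted libraries, 462 and 405 in those of 1DPF, 261 and 239 in those of 4DPF, and 107 and 81.0 in those of 6DPF. No 2 groups overlapped, and within a group the libraries lay close together. From 1DPF to 6DPF it fell by 2.23 on the log2 scale (SE 0.14, edgeR adjusted p = 0.000851). The fall was 0.75 from 1DPF to 4DPF (log2 change -0.75, SE 0.14, edgeR adjusted p = 0.0288) and 1.49 from 4DPF to 6DPF (log2 change -1.49, SE 0.14, edgeR adjusted p = 0.0312). Under the alternatives run for single genes the change from 1DPF to 6DPF kept its call, with adjusted p up to 0.0071. The steps into and out of 4DPF each lost theirs when any library of fasted ventricle or of the groups compared was left out, with edgeR adjusted p up to 0.118 and 0.182. Their log2 changes stayed between -0.78 and -0.69 and between -1.63 and -1.38.

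The largest called decrease from 1DPF to 6DPF was that of gene 103048017, 4530 bases long, which was also picked by this rank once its values were seen. Its level was 0.0904 and 0.685 CPM in the fasted libraries, from 3 counts in replicate 1, then 7.30 and 11.0 in those of 1DPF, 3.70 and 4.13 in those of 4DPF, and 1.30 and 0.796 in those of 6DPF. The fed groups did not overlap one another, and the lower 6DPF library was close to the higher fasted one. It fell by 3.16 on the log2 scale between 1DPF and 6DPF (SE 0.61, edgeR adjusted p = 0.0112), and without 6DPF replicate 2 the adjusted p was 0.0695 with a log2 change of -2.92. This gene is also the member nearest to the limit of the rule, with its smallest difference at 6DPF. Its mean log2(CPM + 1) was 3.32 at 1DPF, 2.30 at 4DPF and 1.02 at 6DPF. It therefore reached the required level of 3 only through 1DPF, the group it fell from, and the rule favours such a fall. The same held for another member called lower between these groups, of 1986 bases, with means of 3.38, 2.58 and 1.55. The log2 changes of gene 103048017 for 4DPF against 1DPF and 6DPF against 4DPF, -1.19 and -1.97, were not called (edgeR adjusted p = 0.228 and 0.181).

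The member with the largest called increase from 1DPF to 6DPF was a gene of 4120 bases. It stood at 7.29 and 2.82 CPM in the fasted libraries, 7.44 and 8.81 in those of 1DPF, 29.7 and 16.4 in those of 4DPF, and 50.1 and 25.0 in those of 6DPF. One fasted library nearly reached the 1DPF level, and all 4 libraries of 4DPF and 6DPF lay above the other 4. Its log2 change was 2.16 (SE 0.49, edgeR adjusted p = 0.0193).

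From 1DPF to 4DPF, the onset of regression, 7 of the 179 genes rose (3.91%) and 3 fell (1.68%). Among all tested genes 3.96% were called higher and 2.20% lower, and among genes at the level 4.91% and 3.11%. In this test the shares of the members were thus near or below those of all genes. The 7 genes that rose were all highest at 4DPF and all changed at least 2-fold, with a median log2 change of 2.12. Their median CPM was 2.16 when fasted and 8.0, 31.8 and 7.25 at the successive fed times. Genes of 4752 and 3054 bases among the 7 reached the required level only at 4DPF. Their mean log2(CPM + 1) was 1.43 and 2.90 at 1DPF and 3.76 and 4.85 at 4DPF, and the rule favours such a rise. In all 7 the first replicate was higher than the second at both 1DPF and 4DPF, with library medians of 10.2 and 6.32 CPM at 1DPF and 44.9 and 19.7 CPM at 4DPF. The 3 that fell had log2 changes from -0.93 to -0.72 and were among the genes highest at 1DPF. None of these 10 calls was left when 1DPF replicate 2 or 4DPF replicate 1 was dropped, with 44 and 36 members at an unadjusted edgeR p under 0.05 (24.6% and 20.1%, against 18.6% and 20.1% of all tested genes). Fewer members, and fewer of all tested genes, were also called when 1DPF replicate 1 or either fasted library was dropped. Without 1DPF replicate 1 the members called were not all among the 10. DESeq2 called 32, with 18 higher (10.1%, against 8.14% of all tested genes and 9.63% of those at the level) and 14 lower (7.82%, against 5.19% and 7.06%).

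**Figure D3:**
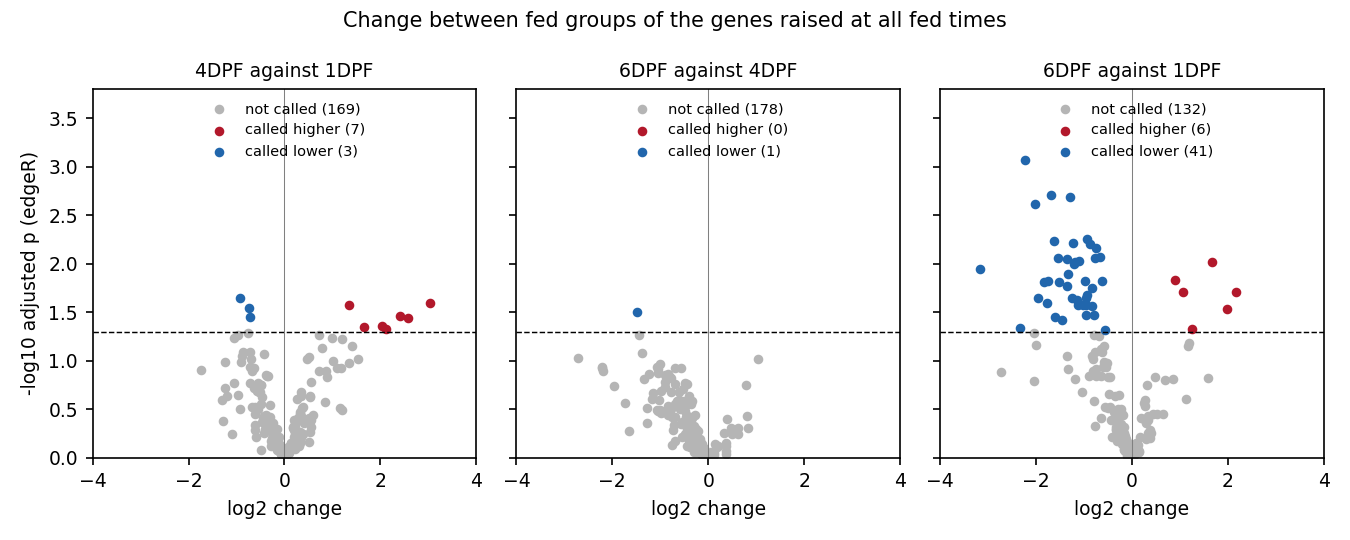
Log2 change (x axis) against -log10 of the edgeR adjusted p (y axis) for the 179 genes in the 3 comparisons between fed groups, with the 0.05 threshold as a dashed line. Calls number 7 higher and 3 lower for 4DPF against 1DPF, 1 lower for 6DPF against 4DPF, and 6 higher and 41 lower for 6DPF against 1DPF.

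Between 4DPF and 6DPF, 1 member fell (0.559%), gene 103053177, and none rose. Of all tested genes 0.0353% were called lower and 0.0530% higher, and of genes at the level 0.0529% and 0.0794%. Without adjustment, 47 members (26.3%, against 8.08% of all tested genes) had p under 0.05 with a lower and 2 (1.12%, against 7.74%) with a higher level at 6DPF. In all, 151 of the 179 log2 changes were negative, and the share of negative changes among all tested genes was not computed. The median log2 change was -0.33, against -0.01 for the genes at the level. The single call was lost without either fasted, either 4DPF or either 6DPF library, in fits that called next to none of all tested genes either. The log2 change of gene 103053177 stayed between -1.63 and -1.38 under the alternatives run for single genes. DESeq2 called 24 members, 22 lower (12.3%, against 2.32% of all tested genes) and 2 higher (1.12%, against 2.20%). With limma voom 2 were called, both lower (1.12%, against 0.0412%). Over the 3 comparisons 127 of the 179 genes were called in none. The matching share of all tested genes was not computed, so this number does not set the members apart. For 6DPF against 1DPF alone 26.3% of the members and 21.7% of all tested genes were called. Among genes at the level, to which all members belong, it was 27.2%, slightly above the members.

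The members were ranked by the smallest of their 3 differences from fasted, which takes no account of the spread between libraries. Its median was 0.75 and its maximum 1.89. The 10 genes with the highest values, from 1.17 to 1.89, were 431 to 3774 bases long, and 7 of them had under 10 CPM in fasted ventricle. Of the 10, 3 were highest at 1DPF, 5 at 4DPF and 2 at 6DPF. A gene under 7 CPM in fasted ventricle had to rise to reach the level the rule requires, so the rule itself bears on how these values vary with the fasted level. In the 45 members lowest in fasted ventricle (0.388 to 4.58 CPM) the median smallest difference was 0.89, and in the next 3 bins of 44 or 45 members it lay between 0.72 and 0.75.

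Gene 103063075, 3030 bases long, ranked first, with a smallest difference of 1.89. It had 0.693 and 0.548 CPM in the fasted libraries, 12.8 and 14.7 in those of 1DPF, 0.914 and 17.8 in those of 4DPF, and 24.4 and 2.21 in those of 6DPF. One 4DPF library was close to fasted and the other near 1DPF, and the 6DPF libraries lay on either side of the 1DPF ones, so its later groups overlap. It had the widest spread between replicates of all members at 4DPF and at 6DPF. None of its changes between fed groups was called (edgeR adjusted p = 0.832, 0.917 and 0.957), with SE of 1.20 to 1.21 on log2 changes between -0.49 and 0.38.

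Gene 103061138, 3104 bases long, ranked second, with 1.87. It was at 2.53 and 1.78 CPM in fasted ventricle, 16.7 and 6.35 in those of 1DPF, 91.5 and 40.6 in those of 4DPF, and 20.2 and 10.2 in those of 6DPF. Both 4DPF libraries stood above all others, while 1DPF and 6DPF overlapped. It rose by 2.58 on the log2 scale from 1DPF to 4DPF (SE 0.53, edgeR adjusted p = 0.0361). Without either fasted library, 1DPF replicate 2 or 4DPF replicate 1, the change was 1.91 to 2.59 and missed the threshold, with adjusted p from 0.0674 to 0.132. Its change of -2.20 from 4DPF to 6DPF was not called by edgeR (adjusted p = 0.127) and was called by DESeq2 (adjusted p = 0.000248). The sixth and seventh ranked genes, of 3725 and 3054 bases, also had their highest level at 4DPF and were called higher there than at 1DPF. The sixth went from 2.26 and 2.41 CPM in the fasted libraries to 70.6 and 27.3 CPM at 4DPF. The seventh went from 1.93 and 2.05 CPM to 39.4 and 19.7 CPM. Its mean log2(CPM + 1) was 2.90, 4.85 and 2.87 at the successive fed times. The seventh gene thus reached the required level only at 4DPF, and the rule favours such a rise. Neither of these 2 calls was left without 1DPF replicate 2 or 4DPF replicate 1.

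**Figure D4:**
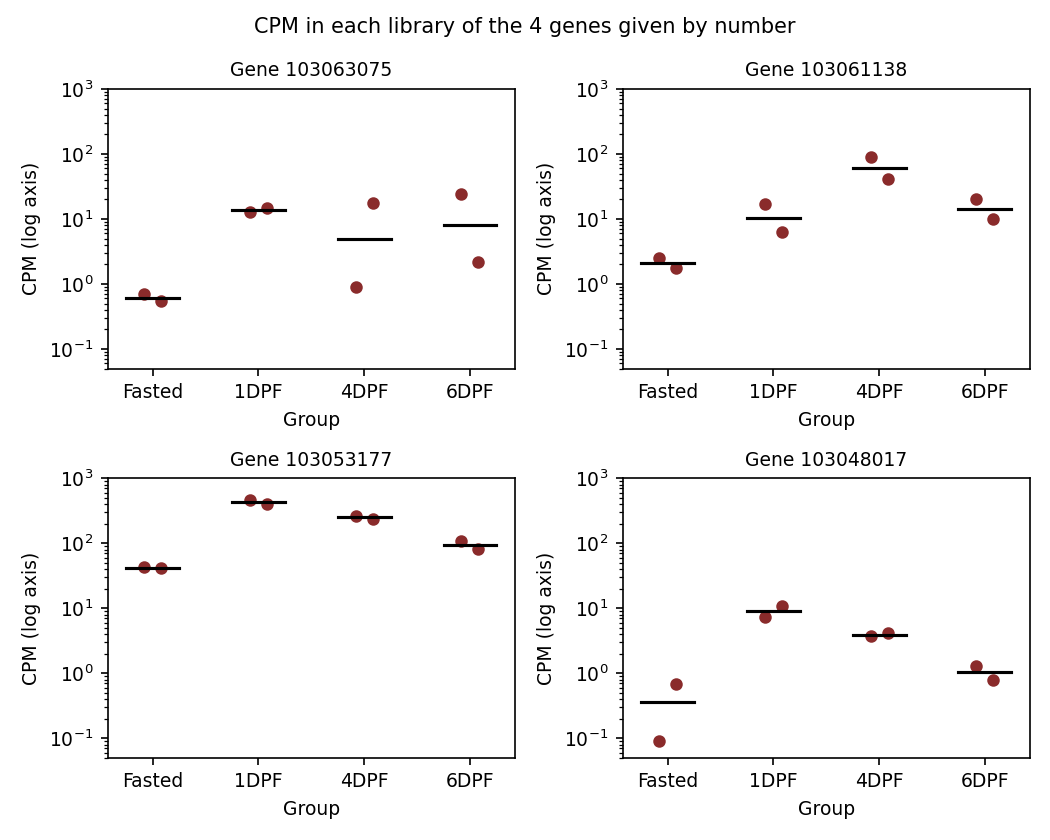
CPM in each library (points, log axis from 0.05 to 1000) of the 4 genes given by number, by group. Lines mark the group mean of log2(CPM + 1) turned back into CPM. Gene 103053177 declines stepwise after 1DPF, gene 103061138 peaks at 4DPF, and the 4DPF and 6DPF libraries of gene 103063075 lie far apart.

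The third ranked gene, of 1578 bases, had the widest gap of all members between its highest fasted and lowest fed library, 1.20 on the log2(CPM + 1) scale. It was at 2.62 and 1.70 CPM fasted, 7.52 and 8.02 in those of 1DPF, 15.0 and 7.34 in those of 4DPF, and 23.9 and 12.2 in those of 6DPF. Every fed library thus stood well clear of fasting, with 4DPF spanning the 1DPF levels. Its change from 1DPF to 6DPF was 1.17 (SE 0.40) and was not called (edgeR adjusted p = 0.0709).

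Levels were compared between genes as CPM per kilobase of gene length. Over the 6 fed libraries the members' mean level ran from 1.04 to 634 CPM per kilobase, with a median of 11.5, close to the 9.86 of all genes at the level. In fasted ventricle their median was 5.62 CPM per kilobase, against 9.66 for all genes at the level, an order the rule itself favours. A fed level of at least 100 CPM per kilobase was reached by 19 of the 179, and by 679 of the 11341 genes at the level. In fasted ventricle 6 of the 179 members had under 1 CPM, against only 27 of these 11341 genes. The rule favours this larger share too. The members' median length was 2302 bases, against 2931 for genes at the level, and 19 (10.6%) were under 1000 bases, against 8.14%.

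The gene with the highest fed level per kilobase, 946 bases long, was at 229 and 267 CPM in the fasted libraries, 1005 and 332 in those of 1DPF, 564 and 941 in those of 4DPF, and 312 and 448 in those of 6DPF. Its 1DPF libraries lay far apart and spanned all others of the fed groups except 1 at 6DPF. None of its changes between fed groups was called (edgeR adjusted p = 0.26 to 0.773). The second, 1627 bases long, was also the highest in CPM, at 637 and 473 fasted, 883 and 837 in those of 1DPF, 1127 and 1305 in those of 4DPF, and 1122 and 762 in those of 6DPF. Here the 4DPF libraries were the highest and those of 6DPF spanned 1DPF, and again no change between fed groups was called (edgeR adjusted p = 0.166 to 0.779). The third, of 807 bases, had 228 and 238 CPM fasted and between 386 and 454 CPM in all 6 fed libraries, the narrowest plateau of these 3 genes, with log2 changes between fed groups of -0.12 to 0.21.

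The fourth, of 2068 bases, followed another course. It was at 279.4 and 279.2 CPM fasted, 1482 and 1339 in those of 1DPF, 697 and 733 in those of 4DPF, and 557 and 602 in those of 6DPF. Its groups did not overlap, and each later fed group was lower than the one before. It fell from 1DPF to 4DPF (log2 change -0.93, SE 0.15, edgeR adjusted p = 0.0226). Like the other members' calls in that comparison, this call was not left without 1DPF replicate 2 or 4DPF replicate 1. The gene stood lower again at 6DPF against 1DPF (log2 change -1.30, SE 0.15, edgeR adjusted p = 0.0021). Its change of -0.37 from 4DPF to 6DPF was not called (edgeR adjusted p = 0.279).

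The libraries of a fed group lay further apart in these genes than in genes at the level, a description with no test. The median absolute difference between the 2 libraries of a group was 0.42 at 1DPF, 0.34 at 4DPF and 0.29 at 6DPF, on the log2(CPM + 1) scale, against 0.16, 0.17 and 0.20 for all genes at the level. In fasted ventricle it was 0.24, against 0.15. At 1DPF, 29 members (16.2%) had libraries at least 2-fold apart, against 3.02% of the genes at the level. In 27 of these 29 replicate 1 was the higher, and over all members replicate 1 was higher in 133 (74.3%, against 58.3% of genes at the level). At 4DPF 29 members were also at least 2-fold apart, against 2.72% of the genes at the level, with replicate 2 higher in 19 and replicate 1 in 10. At 6DPF it was 8 members (4.47%, against 2.50%). In 129 of the 179 no fed group was 2-fold apart, and in 2 all 3 were. The part that this spread has in the members' fed levels was not tested.

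The set of genes itself shifted with single libraries and with the scaling. With a library left out, fewer libraries have to stand apart, which by itself can let genes in. How many entered that way was not counted. Without fasted replicate 1 the rule, applied to the other 7 libraries, was met by 263 genes, of which 158 were among the 179. Without fasted replicate 2 it was met by 212, of which 135 were shared, and without 1DPF replicate 2 by 229, of which 173 were shared. Leaving out 1DPF replicate 1 gave 151 genes, the fewest of the libraries left out, with 144 shared. With library sizes scaled by edgeR's TMM factors 155 genes met the rule, 153 of them shared, and with RLE factors 158, again with 153 shared.

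**Figure D5:**
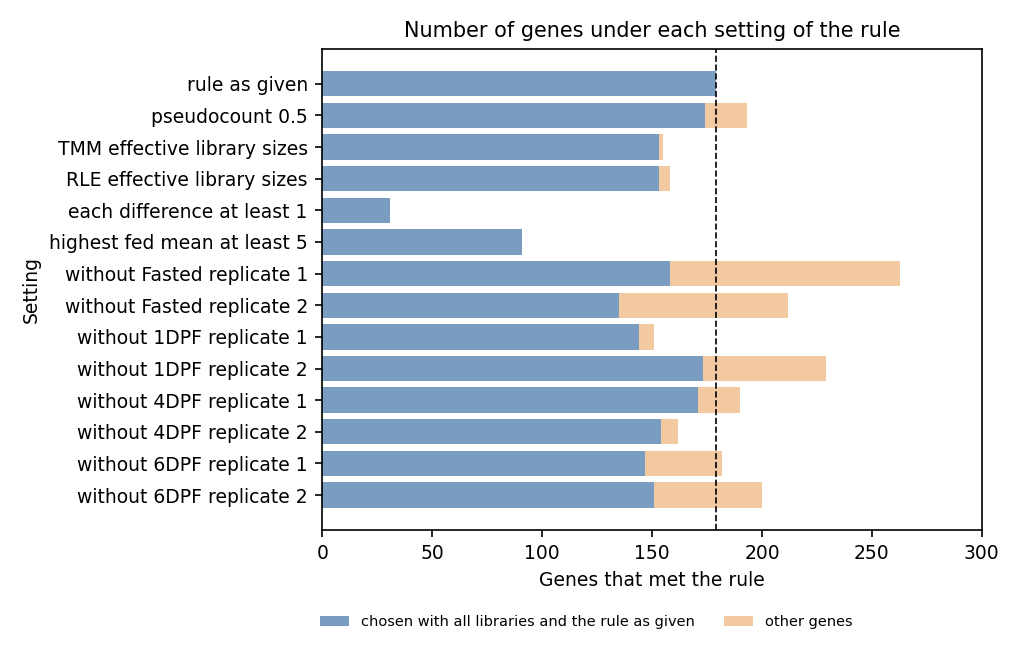
Number of genes that met the rule (x axis) under each setting (y axis), split into genes among the 179 and other genes. The dashed line marks 179, and the counts run from 31 with each difference at least 1 to 263 without fasted replicate 1.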

How the data were processed

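Raw counts per gene were deposited by the authors for 8 libraries, 1 column each, beside a length per gene, per the file headers. The submitters' processing notes name Trimmomatic 0.36, HISAT2 2.1.0, SAMtools 1.8, featureCounts and a DESeq2 release. Genome build, annotation, strand setting and treatment of multi-mapped reads: not given in the sources used here, so counts of overlapping, antisense or near-identical genes are uncertain. Columns were matched to samples by the description label. The members, lists and tests were chosen with earlier results of these data known.

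CPM used column totals and a pseudocount of 1. Tests used all 8 libraries in edgeR 4.0.16 (R 4.3.3; filterByExpr with minimum count 10 and minimum total 15, TMM, glmQLFit, glmQLFTest, group as the only term), with 4 residual degrees of freedom, adjusted over 16986 genes, two-sided. TMM factors lay between 0.9623 and 1.066. SE came from the log2 change and F. The steps were run on simulated data. For the rule, these had rises well above its limit and no spread between libraries beyond random counting. They therefore do not show how the rule performs at the spread seen in the members. Genes followed by number were the first 2 by smallest difference, plus 2 chosen after their values were seen. The 44 gene lists fixed by symbol could not be matched to numbers. The alternatives tried were other tests (DESeq2 1.42.0 and limma 3.58.1 with voom), RLE factors, other filters, the 2 compared groups alone, a replicate block, each library left out, and other settings of the rule.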

Additional observations from a re-analysis of the deposited data

How the results depend on the processing

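Under no alternative run did a called member change direction and stay called. For 4DPF against 1DPF, where 10 members were called, DESeq2 called 32 and the 2 compared groups alone 0 (46 at an unadjusted edgeR p under 0.05), and with each library left out 0 to 9 were called. The DESeq2 share was 17.9%, against 13.3% of all tested genes and 16.7% of those at the level. The 2 compared groups alone called 0 of all tested genes as well. The 46 members at an unadjusted edgeR p under 0.05 were 25.7%, against 22.7% of all tested genes and 26.8% of those at the level. For 6DPF against 4DPF, with 1 call (0.559%, against 0.0883% of all tested genes), DESeq2 called 24 (13.4%, against 4.52%). There limma voom, no filter and a mean of at least 1 CPM called 2 each (1.12%, against 0.106%, 0.166% and 0.115%). The replicate block and the 2 compared groups alone called 0 members and 0 of all tested genes in this comparison. At an unadjusted edgeR p under 0.05 they had 50 and 55 members (27.9% and 30.7%, against 15.7% and 13.5% of all tested genes). In each of the 3 comparisons, every library left out changed the number of members called and lowered that of all tested genes. For 6DPF against 1DPF, with 47 calls, the count ran from 20 to 51 with libraries left out and stayed within 1.5 times under the other alternatives. Without 6DPF replicate 1, which gave the lowest count, the members' share called was below that of all tested genes. It was above that of all tested genes in the other fits with a library left out. Beside genes at the level, the members' share was also lower without 1DPF replicate 1 and without 6DPF replicate 2. With all libraries it was 26.3%, against 27.2% of genes at the level. The replicate numbers share no stated link. Replicate differences of 4DPF and 6DPF correlated at 0.43 across 16986 genes and at 0.22 across the 179 members. Those of 1DPF and 4DPF correlated at -0.34 and -0.25. With the replicate block 11 members (6.15%) were called for 4DPF against 1DPF, against 3.94% of all tested genes and 5.11% of those at the level. For 6DPF against 1DPF it was 45 (25.1%, against 19.8% and 25.3%). With this block gene 103053177 missed the threshold between 4DPF and 6DPF (log2 change -1.49, edgeR adjusted p = 0.0673). The number of members was 31 with each difference at least 1 and 91 with a highest fed mean of at least 5, both by construction, 193 with a pseudocount of 0.5, and 151 to 263 with a library left out.

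Uncalled changes of 2 genes turned sign with a library left out. For gene 103063075 the changes ran from -3.87 to 0.45 for 4DPF against 1DPF (above 0 when 4DPF replicate 1 was left out) and from -2.11 to 3.74 between 4DPF and 6DPF (below 0, at -0.58 and -2.11, when 4DPF or 6DPF replicate 1 was). Between 1DPF and 6DPF its range was -2.57 to 0.73 (above 0, at 0.05 and 0.73, when 1DPF or 6DPF replicate 2 was left out). For gene 103061138 it was -0.12 to 1.16 over the same span (below 0, at -0.12 and -0.09, when 1DPF replicate 2 or 6DPF replicate 1 was). What caused these shifts was not tested. The lowest count of a member in a fed library was 31.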
